A study of Mus musculus with 76 samples.

Results

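The 38 genes described here act at the presynaptic terminal, where vesicles filled with transmitter dock, fuse and are taken back. They were chosen by name, as a list of presynaptic vesicle release genes drawn up with earlier results of these data known. All 38 were found by gene symbol among the 14823 genes of the count table, and all 38 were among the 14339 genes kept for testing. The 76 libraries, in 7 groups, each hold RNA of the dorsal forebrain, the future cortex, of a C57BL/6J mouse embryo collected on embryonic day 16.

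The groups differ in which parent had received α-cypermethrin, a pyrethroid insecticide, and at which dose; the unit of the dose is not given in the sources used here. Parents of every group were dosed over 28 days, first for 7 days and then in 3 cycles of 2 days off and 5 days on, and were mated straight afterwards. In the Ctrl group (12 libraries) both parents received vehicle. In Paternal_0.3Cyp (12) and Paternal_10Cyp (10) only the father received the insecticide, and in Maternal_0.3Cyp (12) and Maternal_10Cyp (8) only the mother did. In Both_0.3Cyp (12) and Both_10Cyp (10) both parents did, at the same dose. No dosing after mating is recorded in the labels. Each group holds female and male embryos and libraries of both labelled batches. The labels name no litter, so littermates may stand in one group, p-values may be too small, and they measure only the spread between these libraries.

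Transmitter release rests on SNARE proteins, which zip vesicle and plasma membrane together, and on synaptotagmins, which sense the calcium that enters with each action potential. Synapsins hold vesicles in reserve, and scaffold proteins of the active zone place primed vesicles next to calcium channels. After fusion the membrane is recovered by endocytosis. In the embryonic cortex these genes are switched on as newborn neurons leave the ventricular zone, mature and grow axons, before most synapses exist, and radial glia and intermediate progenitors carry little of their RNA. In bulk tissue, fewer cells of a type and less RNA per cell cannot be told apart.

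The libraries held between 17.7 and 41.4 M counts (median 19.2 M), and all 10 Both_10Cyp libraries, from 21.2 M upwards, lay above every Ctrl library. The fit scales for totals, and thinning every library to one depth left 22, 27, 25, 18, 27 and 3 members called in the order of groups given below. No library went against its labelled sex. Markers of the dorsal forebrain were present in every library, with Emx1, a transcription factor of the dorsal telencephalon, between 24.3 and 116 CPM (counts scaled to the library total). Some libraries stood apart in marker levels: Paternal_0.3Cyp replicates 3 and 4 and Both_10Cyp replicate 7 were high in embryonic globins, and Ctrl replicate 3 and Paternal_0.3Cyp replicate 9 were high in markers of the diencephalon, the adjoining brain region. The embryonic globin cutoff fell between Both_10Cyp replicate 7, at 11.9 CPM, and replicate 8, at 11.1 CPM, and every other library below it held at most 2.84 CPM. The counts below are also given without the libraries named here as high.

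Of the 32 members with a promoter in the RefSeq table (GRCm38.p6; 41 windows from 250 bases before to 50 after a start), 3 held the left segment of RE1, the element bound by REST, a repressor that keeps neuronal genes low outside neurons. The stretches of all 3 are shown, chosen for the left segment and ordered by p in the joint test of the 6 exposed groups. Letters run 5′ to 3′ along the gene, and capitals mark the RE1 segments searched on both strands, TTCAGCACC (left) and GGACAG (right).
Ppfia3, chr7:45367020-45367105, minus strand: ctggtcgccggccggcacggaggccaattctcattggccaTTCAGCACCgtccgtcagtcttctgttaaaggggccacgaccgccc
Unc13a, chr8:71671727-71671749, minus strand: CTGTCCgcgcccccGGTGCTGAA
Syn1, chrX:20921102-20921168, minus strand: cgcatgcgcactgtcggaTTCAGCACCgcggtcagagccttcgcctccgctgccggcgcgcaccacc
In Ppfia3 the left segment began 46 bases before the start of transcription, and in Syn1 it began 232 bases before it. Both are counted from RefSeq starts. That of Syn1 lies inside the GENCODE M21 gene span given below, so its distances would be shorter from the GENCODE start. Unc13a alone held both segments, on the strand opposite to the gene and separated by 8 bases, from 9 to 31 bases after the start. The left segment was present in 3 of the 41 member windows and in 0.371% of the 32851 windows of all genes, the right segment in 11 and 22.2%, and both in 1 and 0.0913%. The cyclic AMP response element TGACGTCA lay in the Syn1 window only, 159 bases before the start, and in 1.79% of all windows. GC boxes (GGGCGG) occurred in 26 of the 41 member windows and 35.7% of all windows, and TATAAA in 2, both of Sv2b, and 13.6%; these 3 motifs were searched on both strands too. These are letter matches and not measured binding.

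In the Ctrl embryos the members spanned a wide range of levels, compared per kilobase of exon length because longer transcripts give more reads. Rab3a, a small GTPase carried on vesicles, was highest at 129 ± 8.80 CPM per kilobase (SD, n = 12). Syt4, a synaptotagmin, stood at 94.8 ± 13.1, Vamp2, the vesicle SNARE, at 85.7 ± 8.35, and Syt11 at 82.3 ± 2.88. Syt4 and Vamp2, and Vamp2 and Syt11, did not differ beyond their spread. The complexins Cplx2 and Cplx1, which clamp the assembled SNARE complex, came next at 69.9 ± 6.84 and 56.0 ± 4.35. At the low end were Syn3 at 2.14 ± 0.431, Unc13b at 2.00 ± 0.256, Cadps2 at 1.28 ± 0.382 and Vamp1 at 0.350 ± 0.100 CPM per kilobase. Syn3 and Unc13b did not differ beyond their spread, whereas the highest Ctrl library of Vamp1, at 0.587, lay below the lowest of Cadps2, at 0.821. Partners within a family differed widely in level: the Vamp2 mean exceeded the Vamp1 mean, and Syn1 at 51.0 ± 8.91 exceeded Syn2 at 12.4 ± 2.58 and Syn3. This order depends on the length used: per kilobase of the longest transcript Rab3a stood at 184 and Vamp2, at 148, was above Syt4, at 94.8, while Syp moved from rank 9 to rank 4, at 89.1.

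**Figure D1:**
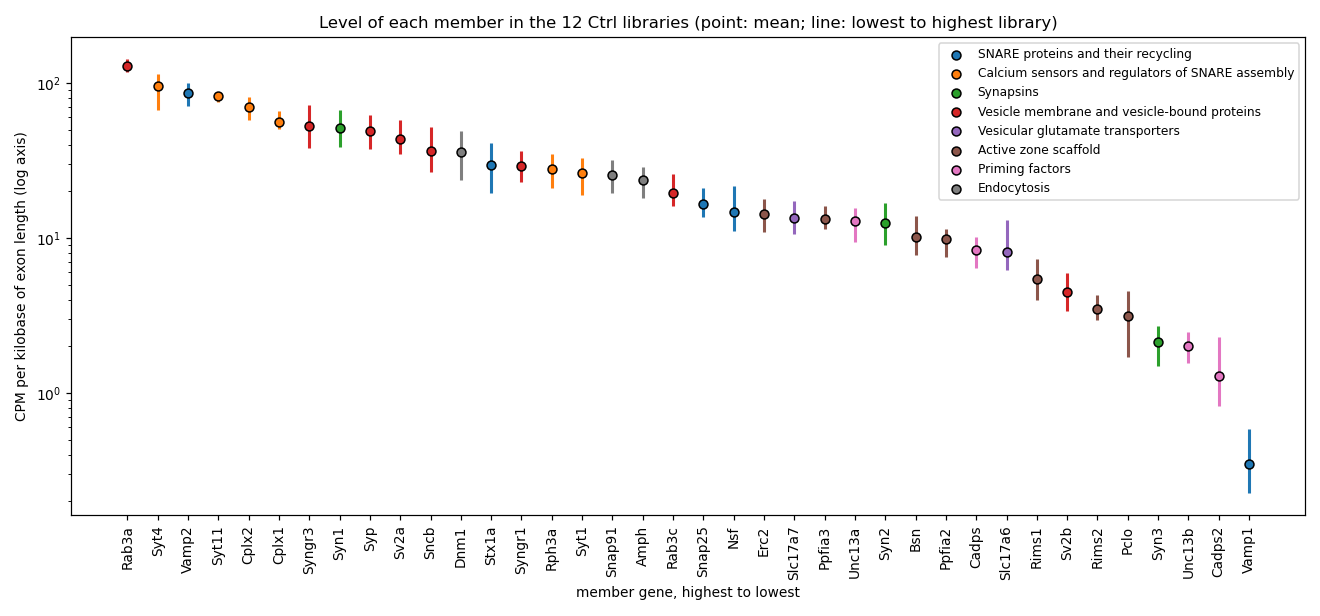
Level of each of the 38 members in the 12 Ctrl libraries, in CPM per kilobase of exon length on a log axis; points are means, lines run from the lowest to the highest library, and colours mark the role. Rab3a is highest at 128.6 and Vamp1 lowest at 0.350 CPM per kilobase, and the lines of neighbouring members mostly overlap.

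The Ctrl embryos also differed among themselves. The median coefficient of variation over the 12 Ctrl libraries was 15.3% for the members, against 11.8% for the 13208 genes of at least 1 CPM. Ctrl replicate 6 held the lowest Ctrl value for 23 of the 38 members, and Ctrl replicates 3 and 7 held the highest for 19 and 13. Summed over the 38 genes, the level in Ctrl ran from 4531 CPM in replicate 6 to 6483 CPM in replicate 7, with a median of 5398 CPM. A few libraries thus held the extremes for many members.

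Each exposed group was compared with Ctrl, to ask whether exposure of either or both parents before conception changed RNA levels in the embryo. Members were called lower in each of the 6 comparisons, and none was called higher. By edgeR's quasi-likelihood test at a Benjamini-Hochberg adjusted p under 0.05, 23 of 38 members were lower in Paternal_0.3Cyp, where 12.2% of all tested genes were called lower and 15.4% higher. In Maternal_0.3Cyp 27 members were lower, against 12.8% of all genes lower and 10.9% higher. In Both_0.3Cyp 25 were lower, against 11.8% lower and 10.5% higher. In Paternal_10Cyp 20 were lower, against 10.8% lower and 10.7% higher. In Maternal_10Cyp 27 were lower, where 20.4% of all genes were called lower and 20.4% higher. Both_10Cyp had 3 members lower, Snap91, Ppfia3 and Syt1, against 1.58% lower and 2.34% higher. In percent of the list these counts are 60.5%, 71.1%, 65.8%, 52.6%, 71.1% and 7.89%, each above the share of all genes called lower.

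The differences were modest in size and shared by most of the list. The median log2 fold change of the 38 members was -0.24 in Paternal_0.3Cyp, -0.27 in Maternal_0.3Cyp, -0.26 in Both_0.3Cyp, -0.22 in Paternal_10Cyp, -0.34 in Maternal_10Cyp and -0.21 in Both_10Cyp. Medians over all tested genes lay between -0.013 and 0.011. Log2 fold changes were below 0 for 35, 37, 37, 36, 37 and 36 of the 38 members in the same order. Both_10Cyp thus had 3 calls but 26 members at an unadjusted p under 0.05. Of all 14339 tested genes, 3949 were at that level in the same comparison. The 6 comparisons share the 12 Ctrl libraries, so likeness between them is not independent evidence.

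Libraries decide part of these counts. Without Ctrl replicate 3 the counts were 14 in Paternal_0.3Cyp, 16 in Both_0.3Cyp and 11 in Paternal_10Cyp. Of all genes 3117, 2042 and 2286 were then called. With every library, 2206 genes were higher and 1755 lower in Paternal_0.3Cyp. Both_0.3Cyp had 1509 higher and 1693 lower, and Paternal_10Cyp 1533 and 1543. Without Paternal_0.3Cyp replicate 4 the count of that group was 15, with 2592 of all genes called. In Paternal_10Cyp, leaving out Ctrl replicate 7 gave 13, with 1958 of all genes called. Leaving out Paternal_10Cyp replicates 2, 5 or 6 gave 13, 12 and 12, with 1794, 1709 and 1807 of all genes. The Both_10Cyp count was 18 once Ctrl replicate 6 was dropped, with 1625 of all genes then called, against 335 higher and 226 lower with every library. It was 0 once Ctrl replicate 3, 7, 8 or 12, or Both_10Cyp replicate 7 or 8, was dropped, with 29 to 190 of all genes called. The count was 1 without Ctrl replicate 9 or Both_10Cyp replicates 1 or 2, with 257, 420 and 251 of all genes called. Dropping Ctrl replicates 1, 2 and 5 gave 7, 6 and 12, with 754, 734 and 973 of all genes called. Dropping Both_10Cyp replicates 3, 4, 6 and 10 gave 14, 11, 9 and 8, with 1396, 1081, 915 and 935 of all genes called. Without the 3 libraries high in embryonic globins the counts were 11, 28, 28, 22, 28 and 0, and leaving out the pair with high diencephalon markers gave 23, 23, 22, 14, 26 and 0.

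**Figure D2:**
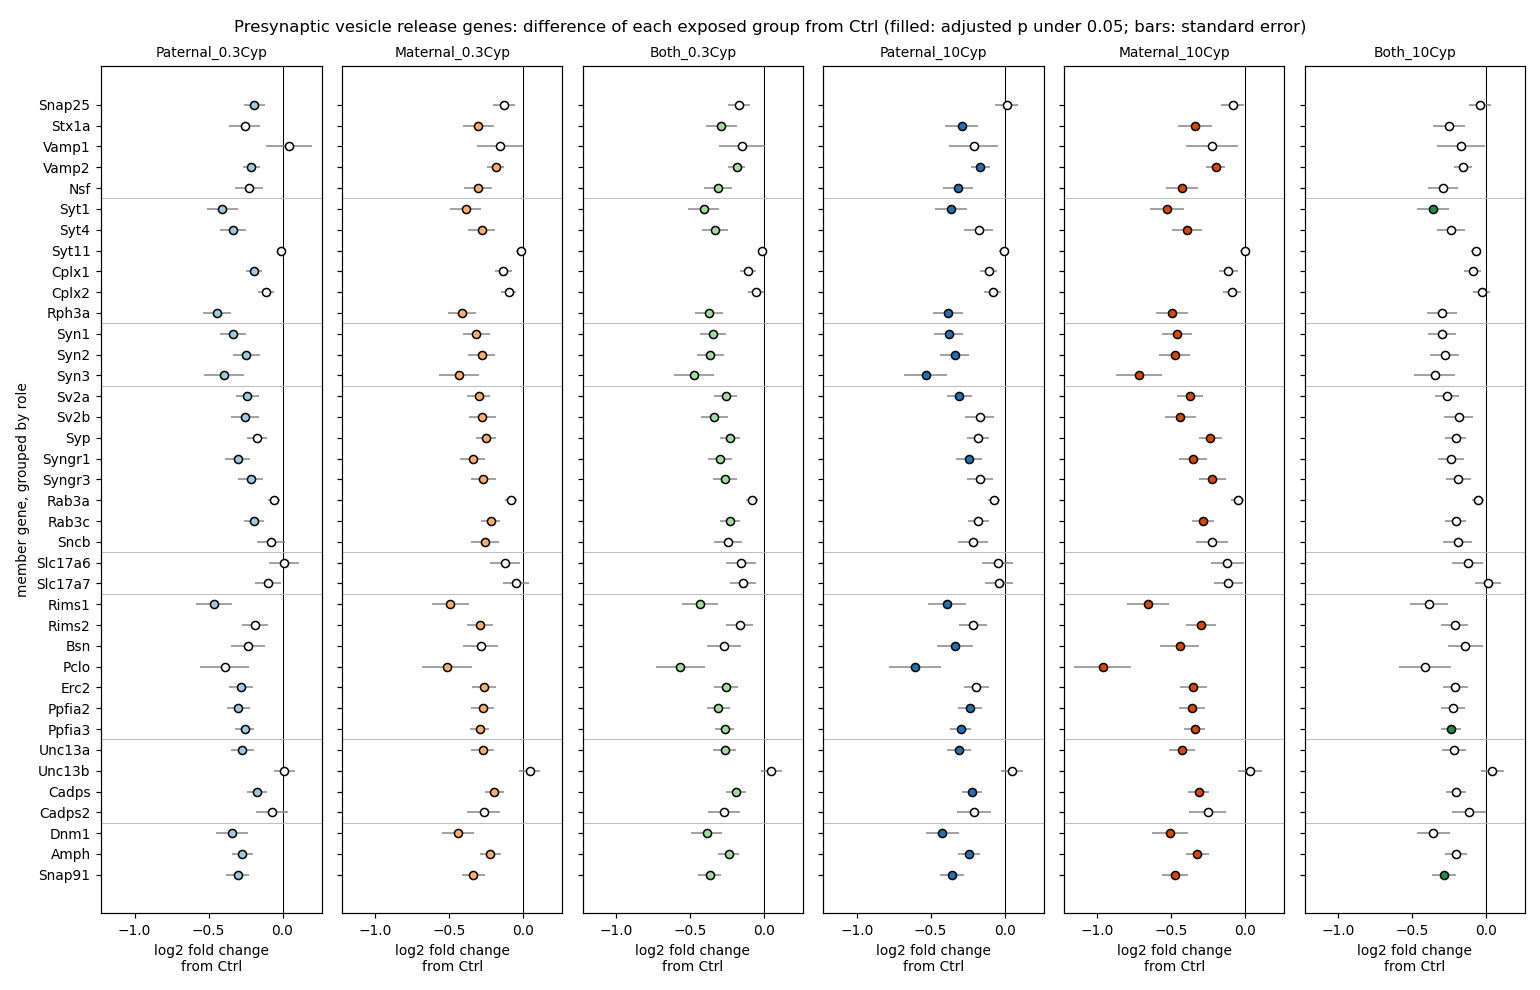
Log2 fold change from Ctrl of the 38 members in the 6 exposed groups, 1 panel per group; members stand in rows by role, bars are standard errors, and filled points have an adjusted p under 0.05. Most points lie left of 0, Pclo in Maternal_10Cyp reaches -0.96, and Unc13b and Syt11 stay near 0 in every panel.

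Snap91, Ppfia3 and Syt1 were called in all 6 comparisons, 13 members in 5, 8 in 4, and 8 in none. A joint test of the 6 exposed groups called 22 of 38 members, against 21.7% of all genes. Without Ctrl replicate 3 or Ctrl replicate 7 it called 14. The members are described below by role, with the 12 of lowest joint p in full. For each of these the lowest, median and highest library of a group are given as normalised CPM, a level, before the log2 fold change from Ctrl with its standard error, a difference. Positions are those of GENCODE M21 on GRCm38.

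Among the SNARE proteins and their recycling machinery, Vamp2, Stx1a and Nsf were lower in 4 or 5 groups, Snap25 in 1 and Vamp1 in none. Vamp2 was lower in 5 groups, with log2 fold changes of -0.16 to -0.21, from Ctrl values of 269.5, 323 and 378 CPM (lowest, median and highest). Stx1a, the plasma membrane SNARE, was lower in 4 groups, with -0.34 ± 0.12 in Maternal_10Cyp (adjusted p = 0.0164). Nsf, the ATPase that takes used SNARE complexes apart, was lower in 4 groups, down to -0.43 ± 0.11 in Maternal_10Cyp. Snap25, the second plasma membrane SNARE, passed the test only in Paternal_0.3Cyp at -0.19 ± 0.07 (adjusted p = 0.0403), and its values in the dose 10 groups were 0.01 ± 0.08, -0.09 ± 0.08 and -0.04 ± 0.08 for father, mother and both. Vamp1 passed in none, with standard errors of 0.15 to 0.17 at Ctrl levels of 2.29, 3.42 and 5.97 CPM. The gene span of Vamp1 overlaps that of Tapbpl on the opposite strand, and whether the counting used strand is not stated.

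Of the 6 calcium sensors and regulators of SNARE assembly, Syt1, Rph3a and Syt4 were lower in at least 4 groups, Cplx1 in 1, and Syt11 and Cplx2 in none. Syt1 (ENSMUSG00000035864, chr10:108497650-109010982 on the minus strand), the calcium sensor of fast release, had 157, 217 and 275 CPM as its lowest, median and highest Ctrl library. Syt1 stood at 95.6, 180.0 and 241 CPM in Paternal_0.3Cyp, 127, 169 and 200.4 in Maternal_0.3Cyp and 142, 159.8 and 204 in Both_0.3Cyp. Dose 10 gave 125, 169 and 217 CPM in Paternal_10Cyp, 129, 149.6 and 171 in Maternal_10Cyp and 111, 176 and 206 in Both_10Cyp. Every library of Maternal_0.3Cyp, Both_0.3Cyp, Paternal_10Cyp, Maternal_10Cyp and Both_10Cyp was below the Ctrl mean, and 11 of 12 were in Paternal_0.3Cyp, yet each group overlapped the Ctrl range. The log2 fold changes of Syt1 were -0.41 ± 0.10, -0.39 ± 0.10 and -0.41 ± 0.10 at dose 0.3 (father, mother, both), and -0.36 ± 0.11, -0.53 ± 0.12 and -0.36 ± 0.11 at dose 10. Adjusted p-values ran from 0.000469 in Maternal_10Cyp to 0.0460 in Both_10Cyp.

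Rph3a (ENSMUSG00000029608, chr5:120940499-121010092 on the minus strand), an effector that Rab3 recruits to vesicles, ran at 98.0, 129.8 and 162 CPM in Ctrl. The corresponding Rph3a values at dose 0.3 were 46.0, 98.5 and 129 CPM in Paternal_0.3Cyp, 88.9, 93.5 and 116 in Maternal_0.3Cyp and 90.6, 99.0 and 109.7 in Both_0.3Cyp. Those at dose 10 were 79.6, 94.6 and 125 CPM in Paternal_10Cyp, 79.5, 92.0 and 99.3 in Maternal_10Cyp and 72.9, 109 and 131 in Both_10Cyp. Paternal_0.3Cyp had the widest spread, with replicates 8, 4 and 3 at its low end, and no Maternal_10Cyp library reached the Ctrl median. Rph3a was lower in 5 groups, with log2 fold changes of -0.37 to -0.50, and its value in Both_10Cyp was -0.30 ± 0.10 with an adjusted p of 0.0651. Syt4 was lower in 4 groups, with log2 fold changes of -0.28 to -0.39, and its values in Paternal_10Cyp and Both_10Cyp were -0.18 ± 0.10 and -0.24 ± 0.09. Syt11, a related synaptotagmin, ranged from -0.004 to -0.07 with standard errors of 0.03. Cplx1 passed only in Paternal_0.3Cyp at -0.19 ± 0.06, and Cplx2 passed in no comparison, with values from -0.03 to -0.11.

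All 3 synapsins were lower in the 5 groups other than Both_10Cyp. Syn1 (ENSMUSG00000037217, chrX:20860511-20921004 on the minus strand), the main synapsin that ties vesicles to the cytoskeleton, had 127, 166 and 221 CPM in Ctrl. Embryos of the dose 0.3 groups had 77.3, 145 and 178 CPM in Paternal_0.3Cyp, 108, 137 and 169 in Maternal_0.3Cyp and 109, 126 and 158 in Both_0.3Cyp for Syn1. The dose 10 groups had 107, 129 and 161 CPM in Paternal_10Cyp, 105, 121 and 135 in Maternal_10Cyp and 96.8, 142 and 185 in Both_10Cyp. The Ctrl range was overlapped by each exposed group, although 6 of 8 Maternal_10Cyp libraries lay under every Ctrl library. Its log2 fold changes in the 5 groups were -0.32 to -0.46, and Both_10Cyp stood at -0.30 ± 0.09 (adjusted p = 0.0549).

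Syn2 (ENSMUSG00000009394, chr6:115134902-115282006 on the plus strand) shares the vesicle-binding domains of Syn1 and stood at 63.0, 85.6 and 118 CPM in Ctrl. At dose 0.3 the Syn2 values were 52.9, 77.4 and 106 CPM in Paternal_0.3Cyp, 53.0, 72.0 and 92.3 in Maternal_0.3Cyp and 51.2, 68.1 and 83.9 in Both_0.3Cyp. At dose 10 they were 54.7, 70.9 and 88.0 CPM in Paternal_10Cyp, 50.1, 62.6 and 74.2 in Maternal_10Cyp and 55.9, 71.9 and 87.4 in Both_10Cyp. Its highest exposed library, Paternal_0.3Cyp replicate 9, is among those high in diencephalon markers. Fold changes ran from -0.24 to -0.48 in the 5 groups, all past the test, and -0.28 ± 0.10 in Both_10Cyp was not.

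Syn3 (ENSMUSG00000059602, chr10:86055125-86498896 on the minus strand), the synapsin expressed early in development, was the scarcest at 18.3, 27.1 and 33.1 CPM in Ctrl. Syn3 stood at 4.18, 21.2 and 28.2 CPM in Paternal_0.3Cyp, 13.2, 20.6 and 24.3 in Maternal_0.3Cyp and 14.8, 17.8 and 24.8 in Both_0.3Cyp. Dose 10 gave 13.0, 17.8 and 23.7 CPM in Paternal_10Cyp, 9.75, 16.3 and 21.9 in Maternal_10Cyp and 14.5, 20.4 and 25.6 in Both_10Cyp. Paternal_0.3Cyp replicate 8 stood alone at the bottom, well under the next library. In Maternal_10Cyp Syn3 fell by 0.72 ± 0.16 on the log2 scale (adjusted p = 0.000374), the second largest difference of any member, and 7 of 8 libraries lay below the Ctrl range. The spans of the 3 synapsin genes overlap those of other genes of the table on the opposite strand (Araf and Timp1, Timp4, and Timp3). So do the spans of Syngr1 (Rpl3), Rab3a (Mpv17l2), Ppfia2 (Acss3), Unc13a (Colgalt1) and Dnm1 (Ciz1). Whether exons overlap was not examined and strand use is not stated, so whether reads of such neighbours could be mixed is not known.

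Of the 8 vesicle membrane and vesicle-bound proteins, Sv2a and Syngr1 fell in 5 groups, Sv2b, Syngr3 and Rab3c in 4, Syp in 3, Sncb in 1 and Rab3a in none. Sv2a, a transporter-like protein of all synaptic vesicles and the target of levetiracetam, had log2 fold changes of -0.24 to -0.37, with -0.26 ± 0.08 in Both_10Cyp at an adjusted p of 0.0522. Its relative Sv2b reached -0.44 ± 0.11 in Maternal_10Cyp. Syngr1 and Syngr3 are synaptogyrins, membrane-spanning proteins of the vesicle; Syngr1 fell by up to 0.35 (Maternal_10Cyp, -0.35 ± 0.09) and Syngr3 by up to 0.27 (Maternal_0.3Cyp, -0.27 ± 0.08). Syp, the vesicle marker synaptophysin, was lower in Maternal_0.3Cyp, Both_0.3Cyp and Maternal_10Cyp, at -0.23 to -0.25.

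The pair of Rab3 GTPases differed in calls. Rab3c was lower in 4 groups, with log2 fold changes of -0.19 to -0.28, from 194, 226 and 312 CPM in Ctrl. Rab3a, with 261, 279 and 318 CPM in Ctrl, ranged only from -0.05 to -0.08 with errors of 0.04 and passed in no comparison; the difference between the 2 genes was not tested. Sncb, beta-synuclein, passed in Maternal_0.3Cyp at -0.26 ± 0.10 and not elsewhere. The vesicular glutamate transporters Slc17a6 and Slc17a7, which load vesicles with glutamate, were not called in any group, with values between -0.15 and 0.01 and errors of 0.09 to 0.11.

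The active zone scaffold held the largest single difference, that of Pclo in Maternal_10Cyp, but not the largest median of a role. In Maternal_10Cyp its median log2 fold change was -0.36, against -0.48 for the synapsins and -0.48 for the endocytosis genes. Pclo (ENSMUSG00000061601, chr5:14514918-14863459 on the plus strand), which encodes the giant scaffold protein piccolo, had 38.4, 76.1 and 102 CPM in Ctrl, with the highest coefficient of variation of the members in Ctrl, 33.8%. The corresponding Pclo values at dose 0.3 were 26.4, 47.3 and 94.4 CPM in Paternal_0.3Cyp, 26.3, 51.8 and 71.4 in Maternal_0.3Cyp and 32.0, 41.1 and 78.5 in Both_0.3Cyp. Those at dose 10 were 22.5, 48.1 and 73.0 CPM in Paternal_10Cyp, 21.7, 31.3 and 55.9 in Maternal_10Cyp and 39.3, 45.3 and 81.5 in Both_10Cyp. Ctrl batch 2 libraries were all above the Ctrl batch 1 libraries, and the Maternal_10Cyp median lay under the lowest Ctrl library. The log2 fold change in Maternal_10Cyp was -0.96 ± 0.19 (adjusted p = 0.000197), with 8 of 8 libraries below the Ctrl mean. It was -0.52 ± 0.17 in Maternal_0.3Cyp, -0.57 ± 0.17 in Both_0.3Cyp and -0.61 ± 0.18 in Paternal_10Cyp, all past the test. Paternal_0.3Cyp at -0.39 ± 0.17 (adjusted p = 0.0689) and Both_10Cyp at -0.41 ± 0.17 (0.118) were not.

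Rims1 (ENSMUSG00000041670, chr1:22286251-22805994 on the minus strand), which binds Rab3 and calcium channels and places vesicles at the release site, had 29.1, 38.6 and 53.6 CPM in Ctrl. Embryos of the dose 0.3 groups had 13.7, 32.4 and 44.2 CPM in Paternal_0.3Cyp, 21.4, 27.7 and 36.1 in Maternal_0.3Cyp and 24.6, 28.8 and 36.5 in Both_0.3Cyp for Rims1. The dose 10 groups had 24.2, 30.1 and 36.7 CPM in Paternal_10Cyp, 18.8, 25.0 and 32.2 in Maternal_10Cyp and 17.5, 32.9 and 38.9 in Both_10Cyp. Libraries of the 4 groups Maternal_0.3Cyp, Both_0.3Cyp, Paternal_10Cyp and Maternal_10Cyp were all below the Ctrl mean, and those of Both_10Cyp too. Rims1 fell in 5 groups, with log2 fold changes of -0.39 to -0.66, the last in Maternal_10Cyp (adjusted p = 0.000299), and stood at -0.38 ± 0.13 in Both_10Cyp (adjusted p = 0.0600).

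Ppfia3 (ENSMUSG00000003863, chr7:45339122-45367019 on the minus strand), a liprin-alpha that anchors active zone proteins and whose promoter stretch is shown above, had 90.4, 101 and 128 CPM in Ctrl. At dose 0.3 the Ppfia3 values were 62.5, 90.4 and 110.5 CPM in Paternal_0.3Cyp, 74.4, 87.5 and 101 in Maternal_0.3Cyp and 79.4, 83.2 and 101 in Both_0.3Cyp. At dose 10 they were 75.3, 85.5 and 97.3 CPM in Paternal_10Cyp, 76.3, 82.6 and 90.4 in Maternal_10Cyp and 68.9, 90.4 and 109 in Both_10Cyp. Maternal_10Cyp did not overlap Ctrl, since its highest library was just under the lowest Ctrl library; among the 38 members this was the only group and gene without overlap, in a comparison where 20.4% of all genes were called lower. Of the 14339 tested genes, 88 (0.614%) lay below every Ctrl library in all Maternal_10Cyp libraries. The log2 fold changes were -0.26 ± 0.06, -0.29 ± 0.07 and -0.26 ± 0.06 at dose 0.3 and -0.30 ± 0.07, -0.34 ± 0.07 and -0.24 ± 0.07 at dose 10. All 6 passed, with adjusted p from 0.000323 to 0.0375.

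Ppfia2 (ENSMUSG00000053825, chr10:106470339-106935952 on the plus strand), a second liprin-alpha, had 81.6, 112 and 125 CPM in Ctrl. Ppfia2 stood at 57.2, 91.8 and 107 CPM in Paternal_0.3Cyp, 74.5, 89.6 and 105 in Maternal_0.3Cyp and 78.7, 86.6 and 99.9 in Both_0.3Cyp. Dose 10 gave 72.3, 94.8 and 105 CPM in Paternal_10Cyp, 76.4, 81.8 and 92.9 in Maternal_10Cyp and 66.8, 90.5 and 115 in Both_10Cyp. Ctrl replicates 6 and 5 were the lowest of Ctrl, and each exposed group overlapped the Ctrl range. It was lower in 5 groups, with log2 fold changes of -0.23 to -0.36, and -0.22 ± 0.08 in Both_10Cyp did not pass. Erc2, a scaffold of the ELKS family that binds Rims1, was lower in 4 groups, with log2 fold changes of -0.26 to -0.35. Bsn, piccolo's partner bassoon, was lower in Paternal_10Cyp (-0.33 ± 0.12) and Maternal_10Cyp (-0.44 ± 0.13), and Rims2 in Maternal_0.3Cyp (-0.29 ± 0.09) and Maternal_10Cyp (-0.30 ± 0.10).

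**Figure D3:**
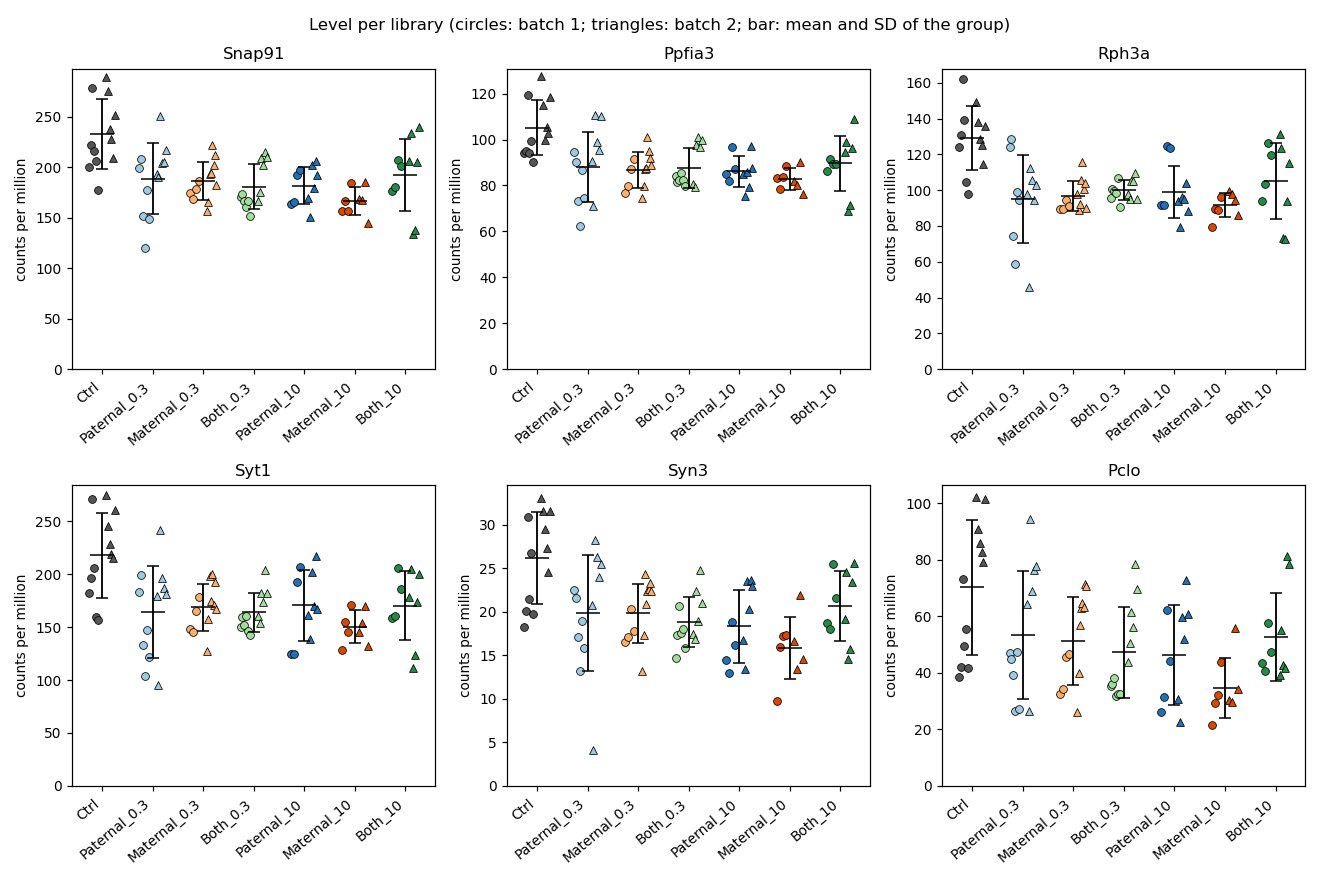
Normalised level (CPM) of 6 members in each of the 76 libraries by group; circles are batch 1, triangles batch 2, and bars the mean and SD of the group. Exposed libraries sit lower on average but overlap Ctrl, except for Ppfia3 in Maternal_10Cyp, where the highest library is at 90.4 CPM.

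Of the 4 priming factors, Unc13a and Cadps were lower in 5 groups, and Unc13b and Cadps2 in none. Unc13a (ENSMUSG00000034799, chr8:71624417-71671757 on the minus strand), the priming factor needed for glutamate release, had 119, 162 and 196 CPM in Ctrl. The corresponding Unc13a values at dose 0.3 were 77.5, 145 and 168 CPM in Paternal_0.3Cyp, 115, 136 and 155 in Maternal_0.3Cyp and 109.9, 133 and 165 in Both_0.3Cyp. Those at dose 10 were 109, 134 and 147 CPM in Paternal_10Cyp, 111, 123 and 126 in Maternal_10Cyp and 104, 150.3 and 169 in Both_10Cyp. The groups overlapped Ctrl throughout, and Maternal_10Cyp was the tightest, with every library under the Ctrl mean. Unc13a was lower in 5 groups, with log2 fold changes of -0.26 to -0.43, the last in Maternal_10Cyp at an adjusted p of 0.000214, and stood at -0.21 ± 0.08 in Both_10Cyp. Its relative Unc13b had log2 fold changes of 0.01 to 0.05 with errors of 0.07 to 0.08, from Ctrl values of 35.6, 44.0 and 56.2 CPM. Cadps, which primes dense-core vesicles, was lower in 5 groups, with log2 fold changes of -0.17 to -0.32. Cadps2 was not called, with values of -0.07 to -0.27 and errors of 0.11 to 0.12.

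The 3 endocytosis genes were all lower in 5 groups, and Snap91 also in Both_10Cyp. Snap91 (ENSMUSG00000033419, chr9:86765923-86880654 on the minus strand), the clathrin assembly protein that sets vesicle size, had the lowest joint p of all members, with 178, 225 and 289 CPM in Ctrl. Embryos of the dose 0.3 groups had 119.7, 196 and 250.5 CPM in Paternal_0.3Cyp, 157, 184 and 222 in Maternal_0.3Cyp and 152, 172 and 215 in Both_0.3Cyp for Snap91. The dose 10 groups had 151, 185 and 206 CPM in Paternal_10Cyp, 145, 167 and 185 in Maternal_10Cyp and 133, 203 and 239.8 in Both_10Cyp. All libraries of Maternal_0.3Cyp, Both_0.3Cyp, Paternal_10Cyp and Maternal_10Cyp were below the Ctrl mean of 232 ± 34.6 CPM (SD, n = 12), as were 11 of 12 of Paternal_0.3Cyp and 8 of 10 of Both_10Cyp. Log2 fold changes were -0.30 ± 0.08, -0.34 ± 0.08 and -0.37 ± 0.08 at dose 0.3 and -0.36 ± 0.08, -0.48 ± 0.09 and -0.29 ± 0.08 at dose 10. The adjusted p was lowest in Maternal_10Cyp (0.000105) and highest in Both_10Cyp (0.0368).

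Dnm1 (ENSMUSG00000026825, chr2:32308471-32353338 on the minus strand), the neuronal dynamin that pinches vesicles off the membrane, had 125, 174 and 259 CPM in Ctrl. At dose 0.3 the Dnm1 values were 88.0, 149 and 256 CPM in Paternal_0.3Cyp, 115, 137 and 185 in Maternal_0.3Cyp and 115, 138 and 187 in Both_0.3Cyp. At dose 10 they were 117, 133 and 174 CPM in Paternal_10Cyp, 114, 138 and 140.1 in Maternal_10Cyp and 89.7, 149 and 185 in Both_10Cyp. One Paternal_0.3Cyp library, replicate 9, nearly reached the top of the Ctrl range, while the other exposed libraries stayed below it. It fell in 5 groups, with log2 fold changes of -0.34 to -0.51, and Both_10Cyp stood at -0.36 ± 0.11 with an adjusted p of 0.0528. Amph, amphiphysin, which recruits dynamin to the coated neck, was lower in the same 5 groups, with log2 fold changes of -0.22 to -0.32.

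Group means were also fitted within each labelled batch. In batch 1 no member was called in any of the 6 comparisons, with 24, 7, 19, 2, 20 and 0 members at an unadjusted p under 0.05 by edgeR; of all genes, at most 0.133% were called there. In batch 2 the counts were 7, 25, 12, 21, 24 and 25, with 10.9% to 33.2% of all genes called in either direction. The median log2 fold change of the members was below 0 in both batches for every group. It was -0.25 and -0.22 (batch 1 and batch 2) in Paternal_0.3Cyp, -0.22 and -0.33 in Maternal_0.3Cyp, and -0.23 and -0.30 in Both_0.3Cyp. At dose 10 it was -0.17 and -0.33 for the father, -0.25 and -0.40 for the mother, and -0.07 and -0.32 for both parents. The difference between batches, tested in the same fit, called 0 of 38 members in each comparison, with 1, 0, 1, 4, 2 and 6 at an unadjusted p under 0.05. Of all genes at most 0.00697% were called, and 7.11%, 4.74%, 4.43%, 8.76%, 5.77% and 12.1% were at an unadjusted p under 0.05. Pclo in Maternal_10Cyp was -0.66 ± 0.27 in batch 1 and -1.27 ± 0.27 in batch 2.

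**Figure D4:**
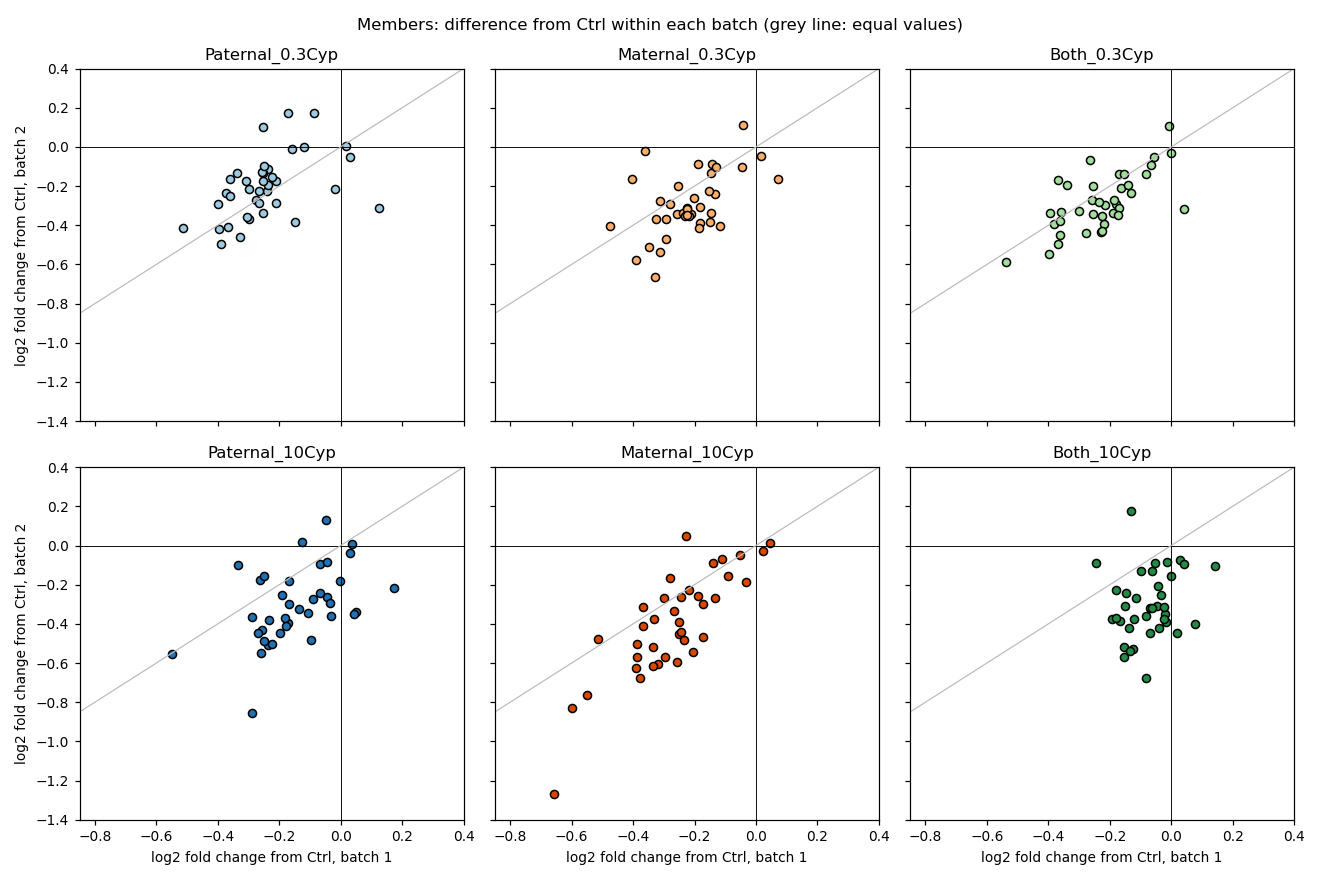
Log2 fold change from Ctrl of each member in batch 1 (horizontal) and batch 2 (vertical), 1 panel per exposed group; the grey line marks equal values. Most points are below 0 on both axes, and in Both_10Cyp the batch 1 values centre on -0.07 while those of batch 2 centre on -0.32.

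Markers of some cell types also differed between the exposed groups and Ctrl, in both directions. Of all tested genes 12.2%, 12.8%, 11.8%, 10.8%, 20.4% and 1.58% were called lower in the same order of groups. Those called higher were 15.4%, 10.9%, 10.5%, 10.7%, 20.4% and 2.34%. Counts near these shares, such as those of the interneuron markers, do not set a list apart. Of 10 intermediate progenitor markers (Eomes, Neurog2, Insm1 and others), 9, 9, 7, 5, 9 and 2 were higher than in Ctrl in the 6 groups, with medians of 0.35 to 0.57 on the log2 scale. Their summed level ran from 499 to 952 CPM in Ctrl, 505 to 1406 in Paternal_0.3Cyp, 721 to 897 in Maternal_0.3Cyp, 769 to 923 in Both_0.3Cyp, 602 to 947 in Paternal_10Cyp, 835 to 1030.2 in Maternal_10Cyp and 620.0 to 1231 in Both_10Cyp. Of 17 radial glia markers 7, 6, 6, 3, 7 and 1 were higher and 3, 2, 3, 2, 3 and 2 lower. Of 13 pan-neuronal markers 6, 7, 4, 4, 6 and 1 were lower and 2 higher, the latter in Maternal_10Cyp, with medians of -0.20 to -0.12. Deep-layer neuron markers were lower in 1, 1, 3, 1, 3 and 0 of 10. Upper-layer neuron markers were lower in 3, 3, 2, 1, 3 and 0 of 10, and neither list held a marker called higher. Of 15 interneuron markers 3, 1, 0, 1, 3 and 0 were lower and 0, 0, 1, 0, 1 and 0 higher. Oligodendrocyte precursor markers were lower in 4, 6, 6, 4, 7 and 1 of 7. Early astrocyte markers were lower in 3, 3, 4, 2, 6 and 0 of 9. Dorsal forebrain markers were higher in 5, 3, 3, 4, 7 and 1 of 10, and 1 was lower in Paternal_0.3Cyp. Of 9 erythroid markers 7, 2, 2, 3, 0 and 1 were higher, with medians above 0 in all 6 groups (0.25 to 0.40). In Paternal_0.3Cyp 9 of 15 diencephalon markers were higher. No marker list was at 0 in a library except the embryonic globins, and the part of these shifts in the members' differences was not tested.

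Several libraries at the extremes of the summed member level were also at the extremes of the progenitor markers. The 4 libraries with the lowest member sums were Paternal_0.3Cyp replicate 4 (3685 CPM), Both_10Cyp replicates 7 (3856) and 8 (3897) and Paternal_0.3Cyp replicate 3 (4021). Their intermediate progenitor sums were 1406, 1231, 1161 and 1232 CPM, the 4 highest of the series. The next lowest member sum, in Paternal_0.3Cyp replicate 8 (4139 CPM), came with a progenitor sum of 841 CPM, near its group median of 835. At the other end, Ctrl replicates 7 (6483 CPM) and 3 (6463) had progenitor sums of 517 and 499 CPM. In Ctrl, Paternal_0.3Cyp and Both_10Cyp the library with the lowest member sum had the most progenitor signal of its group, and in Paternal_0.3Cyp, Maternal_0.3Cyp and Paternal_10Cyp the highest had the least, each in 3 of 7 groups. The library with the lowest member sum ranked 2 from the top in progenitor signal in both Maternal_0.3Cyp and Paternal_10Cyp. By contrast, it ranked only 6 from the top in Both_0.3Cyp and 4 in Maternal_10Cyp. Group medians of the member sum were 5398 CPM in Ctrl, 4882 in Paternal_0.3Cyp, 4726 in Maternal_0.3Cyp, 4648 in Both_0.3Cyp, 4685 in Paternal_10Cyp, 4473 in Maternal_10Cyp and 5026 in Both_10Cyp.

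**Figure D5:**
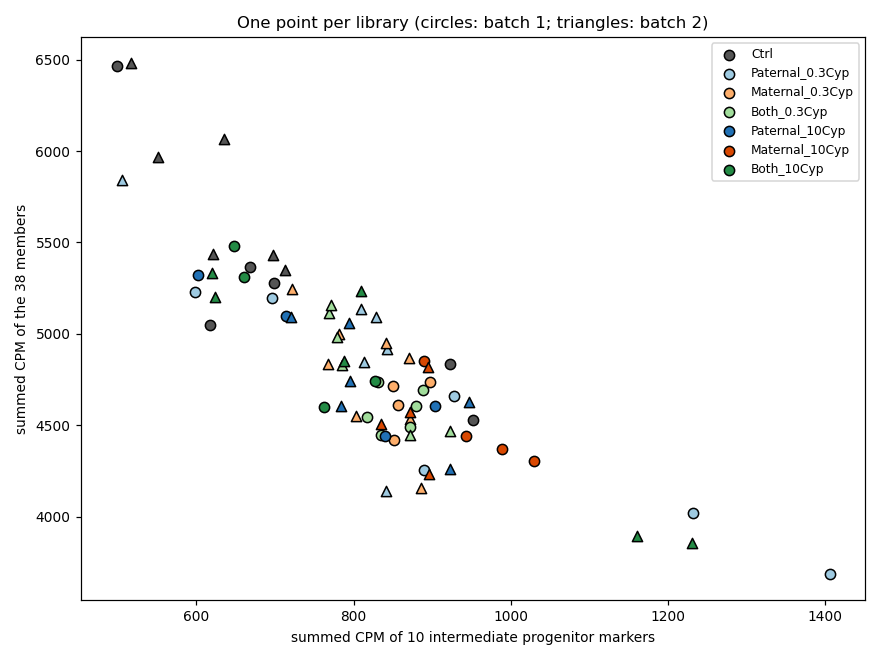
Summed level of the 38 members (vertical, CPM) against the summed level of 10 intermediate progenitor markers (horizontal, CPM), 1 point per library, coloured by group; circles are batch 1 and triangles batch 2. The 4 libraries with the highest progenitor sums, 1161 to 1406 CPM, lie at the bottom, at member sums of 3685 to 4021 CPM.

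Added covariates ended most calls. With the log2 ratio of embryonic to adult globins as a covariate, 0, 1, 0, 14, 20 and 0 members were called, beside 0.307%, 1.19%, 0.0697%, 16.0%, 28.1% and 0.921% of all genes in either direction, and the members' medians were -0.20 to -0.12. The embryonic globin sums behind this ratio were low, with medians of 0.185 CPM in Ctrl and 0.736 to 1.38 CPM in the exposed groups. This covariate thus differed with exposure, and what the lost calls reflect was not tested. With 2 surrogate variables none was called in any of the 6 groups or in the joint test, and at most 0.621% of all genes were called in a comparison. Transcript length also differed: the members' median longest transcript was 4787.5 bases against 3485 for all tested genes, and over all genes log2 fold changes fell with length in each comparison (Spearman's rho across genes between -0.46 and -0.35, genes not being independent replicates). Among the 38 members rho was between -0.25 and -0.06, and with offsets for GC content and length it was 0.34 to 0.45. Fitting only the 2 groups of a comparison gave 0 calls in Paternal_0.3Cyp, where 0 of 13717 genes were called and the members' median was -0.24, and in Both_10Cyp. Omitting the batch term gave 13 in Paternal_10Cyp and 0 in Both_10Cyp, where DESeq2 called 12. With those offsets 19, 27, 24, 16, 26 and 2 members were called. These include Unc13b, which was then called higher in Maternal_0.3Cyp, Both_0.3Cyp, Paternal_10Cyp and Maternal_10Cyp, with log2 fold changes of 0.25, 0.26, 0.29 and 0.38 and adjusted p of 0.00126 to 0.0265.

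Exposed groups were also contrasted with each other, to ask whether dose or the exposed parent mattered. For dose 10 minus dose 0.3, edgeR called 0 of 38 members after the father's exposure (0.0628% of all genes called; 1 member at an unadjusted p under 0.05), 0 after the mother's (0% of all genes; 1 member) and 0 after both (0.00697%; 0 members). Median differences of the members were -0.01, -0.07 and 0.05. For mother minus father 0 were called at dose 0.3 (0.00697% of all genes; 0 members at an unadjusted p under 0.05) and 0 at dose 10 (0%; 2 members). For both parents minus mother 0 were called at dose 0.3 (0%; 0 members) and 0 at dose 10 (0%; 7 members). For both parents minus mother at dose 10, edgeR put 1680 of all 14339 genes at an unadjusted p under 0.05. DESeq2 also called 0 members in each of these 7 comparisons, and limma 0 in 6 of them.

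The seventh, Both_10Cyp minus Maternal_10Cyp, was the one with the largest median, 0.12, with 35 of 38 members above 0. Pclo differed by 0.55 ± 0.20 (adjusted p = 0.423) and Syn3 by 0.37 ± 0.16. Limma with quality weights, which give less weight to libraries far from their group, called 14 members higher there, in a fit that called 17.4% of all genes in either direction. Dose 10 minus dose 0.3 for both parents had a median of 0.16 in batch 1 and -0.02 in batch 2, and for the father 0.11 and -0.09. A call in one exposed group and not in another does not show that they differ.

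No member passed the threshold for sex or for its interplay with exposure. Male minus female embryos gave 0 of 38 members (0.0907% of all genes) with 0 at an unadjusted p under 0.05 and values from -0.08 to 0.07, and DESeq2 and limma also called 0. The joint test that the sex difference is alike in all 7 groups called 0 members (0% of all genes), with 0 at an unadjusted p under 0.05.

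Of 76 other presynaptic genes, listed from the same pathways, 74 were in the table and tested. In the 6 groups 33, 40, 33, 25, 43 and 3 of them were lower and 4, 2, 2, 2, 3 and 1 higher, with medians of -0.26 to -0.17 on the log2 scale. Across them 20 were lower in at least 5 comparisons, 2 were higher in at least 5, and 22 were called in none. Vamp3, Synj1, Stxbp5, Dnm3 and Dmxl2 were among the 6 of lowest joint p. Vamp3, a SNARE of general endosomal traffic found outside neurons too, was higher by 0.21 ± 0.07 to 0.42 ± 0.07, with Both_10Cyp short of the threshold (adjusted p = 0.0633). Synj1, the lipid phosphatase that uncoats vesicles, was lower in all 6 groups, from -0.32 ± 0.10 in Both_10Cyp to -0.55 ± 0.11 in Maternal_10Cyp. Dnm3, a dynamin, reached -0.72 ± 0.15, Dmxl2, which helps acidify vesicles, -0.55 ± 0.10 and Stxbp5, tomosyn, which holds back SNARE assembly, -0.41 ± 0.09 in Maternal_10Cyp.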

How the data were processed

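RNA of 76 embryos was extracted with an RNeasy Mini Kit and sequenced from libraries made by Novogene, per the labels' protocols. The deposited table holds estimated counts per gene, whole numbers that the authors made on build mm10, the tools named being Salmon 1.10.1 and Trim Galore 0.5.0, per the submitters' processing notes; the summing to genes, rounding, annotation release, filter and strandedness are not given in the sources used here. Groups, sex and batch come from the labels. Symbols and positions come from GENCODE M21 (13 genes had no symbol), promoters from RefSeq.

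All 14823 genes entered 1 fit in edgeR 4.0.16 (R 4.3.3): filterByExpr removed 484, TMM scaled the libraries, and a robust quasi-likelihood model had terms for group, batch and sex. P-values are 2-sided and Benjamini-Hochberg adjusted over 14339 genes per comparison, with calls at 0.05. CPM are counts scaled to the TMM-adjusted library total. The steps were tested on simulated data. Described in full were the 12 members of lowest joint p, and of the other presynaptic genes the 6 of lowest joint p, 1 of which is not reported here. Members, lists and rules were chosen with earlier results of these data known.

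Alternatives used DESeq2 1.42.0, limma 3.58.1 and sva 3.50.0, other scaling, filters and covariates, fits within 1 batch, and refits that each omitted 1 library. No libraries of a group agreed within sampling noise (smallest scaled chi-square per gene 3.85), so none looked like a repeat sequencing of another. Each was treated as 1 replicate, although this check cannot show whether embryos share a litter. Library totals of at least 17.7 M counts bound the precision of scarce members such as Vamp1.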

Additional observations from a re-analysis of the deposited data

How the results depend on the processing

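Counts of members called are in the order Paternal_0.3Cyp, Maternal_0.3Cyp, Both_0.3Cyp, Paternal_10Cyp, Maternal_10Cyp and Both_10Cyp. With 2 surrogate variables they were 0 in each, with 0 in the joint test. The globin ratio as a covariate left 0, 1, 0, 14, 20 and 0, with 1 in the joint test. Batch 1 alone gave 0, 0, 0, 0, 1 and 0, with 0 jointly, and batch 2 alone 4, 21, 11, 19, 22 and 19, with 7 jointly. Without a batch term the counts were 20, 25, 24, 13, 27 and 0. Leaving out the libraries high in embryonic globins gave 11, 28, 28, 22, 28 and 0, and those high in diencephalon markers 23, 23, 22, 14, 26 and 0. Only the groups compared gave 0, 30, 30, 24, 28 and 0. DESeq2 gave 25, 28, 26, 20, 27 and 12, and limma 20, 30, 30, 26, 29 and 3, with 14 for Both_10Cyp minus Maternal_10Cyp. The cause of these differences was not tested.

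Leave-one-out counts ran from 14 to 28, 19 to 29, 16 to 28, 11 to 23, 25 to 28 and 0 to 18, with 14 to 25 jointly, and stayed at 0 in the other comparisons refitted; this was not run for sex by exposure. With the replicate number as a block the counts were 25, 29, 26, 19, 27 and 4, with 22 jointly. Same-numbered libraries did not deviate together (median correlation 0.00857, lowest -0.489, over 210 pairs), and 4 of 76 libraries correlated best with one of their own number, so the numbers do not pair the samples.

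Of 125 calls of single members, DESeq2 kept 125, limma 118, thinned counts 122, the block 121, no batch term 109, only the groups compared 99, GC and length offsets 97, batch 2 alone 77, the globin ratio 35, batch 1 alone 1 and 2 surrogate variables 0. Without the libraries high in globins 110 held, and without those high in diencephalon markers 105. With 2 surrogate variables 23 log2 fold changes turned positive: Syn2 0.0442, Syngr3 0.0398, Rab3c 0.00854, Dnm1 0.0105 in Paternal_0.3Cyp; Stx1a 0.0127, Vamp2 0.00211, Nsf 0.00887, Syn2 0.0256, Syngr3 0.00122, Erc2 0.0315, Ppfia2 0.00181, Amph 0.0385 in Maternal_0.3Cyp, Stx1a 0.0116, Erc2 0.0112 in Both_0.3Cyp, Stx1a 0.00471, Vamp2 0.00560, Syngr1 0.00907 in Paternal_10Cyp, Stx1a 0.0944, Vamp2 0.0471, Syp 0.0301, Syngr1 0.0127, Syngr3 0.144, Erc2 0.0146 in Maternal_10Cyp. With GC and length offsets Bsn in Paternal_10Cyp stood at 7.85e-05. Batch 1 holds 4 to 6 libraries a group and batch 2 holds 4 to 8, which bounds what each batch alone can show.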
